A study of Mus musculus with 6 samples.

Results

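The matrix metalloproteinases (MMP), the ADAMTS proteases, the ADAMTS-like proteins (ADAMTSL) and the tissue inhibitors of metalloproteinases (TIMP) were followed through the cells of the injured mouse rotator cuff enthesis. The genes were taken by symbol as every Mmp, Adamts, Adamtsl or Timp gene with a number in the deposited gene list, which gave 50 of 32285 genes: 22 MMP, 19 ADAMTS, 5 ADAMTSL and 4 TIMP genes. MMPs are zinc endopeptidases that cut collagens, gelatins, elastin, proteoglycans and many proteins bound in the matrix, and most are made as inactive proenzymes. ADAMTS enzymes are secreted zinc proteases that trim the propeptides of collagens or cut aggrecan and versican, while ADAMTSL proteins share the ancillary domains of these enzymes but lack the protease domain. TIMPs bind the active site of MMPs, and Timp3, which is held in the matrix, also inhibits several ADAMTS enzymes. At the enthesis, where tendon enters bone through fibrocartilage, these families are known for clearing damaged matrix and for reshaping the scar.

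Single-cell RNA sequencing libraries had been made on the 10x Genomics platform from entheses harvested 7 days after injury and repair of the rotator cuff (7 dpi), with 3 libraries from wild-type C57BL/6 mice and 3 from Nlrp3-/- mice, which lack the inflammasome sensor NLRP3. Mice were 12 to 14 weeks old at surgery and the harvested tissue was pooled, and the number of animals in each library was not given in the sources used here. All 6 libraries shared the injury, the repair and the time point, and no uninjured library was analysed here. The titles of the knockout libraries name Nlrp3, whereas the genotype entries of replicates 2 and 3 name other numbers of the Nlrp family. The libraries are called WT1 to WT3 and KO1 to KO3 below.

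Nlrp3 had 0 UMIs (unique molecular identifiers, 1 for each captured transcript) in the cells of KO1, KO2 and KO3, where a count of 0 has an upper limit of 3 counts a library (95% confidence, counting error only), and 93.7 to 165.6 CPM (UMIs of the gene in 1000000 UMIs) in those of WT1 to WT3. Libraries held 97042713 to 134901999 UMIs, and 71471 cells were used, 9298 to 14985 a library with median depths of 2942 to 6682 UMIs. A further 9522 cells in clusters drawn mostly from 1 library were set aside, 9322 of them from KO1, 44.17% of its cells against 0.20% to 0.51% elsewhere, and 535 of 70934 barcodes (0.7542%) occurred in more than 1 library. Xist was at 784 to 941 CPM in the knockout libraries and at most 0.102 CPM in the wild-type libraries, and Ddx3y, a gene of the Y chromosome, was at 39.98 to 57.6 CPM where the mice were wild type against 0 UMIs where they were knockout, so genotype and the sex of the pooled animals cannot be told apart in any comparison below. WT3 stood apart from the other wild-type libraries. In macrophages the median absolute log2 difference over genes was 0.083 between WT1 and WT2, 0.263 and 0.245 between WT3 and these, and 0.129 to 0.142 between WT3 and the knockout libraries, and genotype results are therefore also given without WT3. WT3 was chosen for this after its likeness to the knockout libraries was seen, and leaving out such a library tends to widen the difference between groups. The share of all tests called rose from 0.707% to 10.5% without it, so p-values without WT3 are not independent support.

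Cells were clustered without the 50 genes and named from marker lists. The names stand for cells that are neutrophil-like, macrophage-like and so on by these markers, and 9607 cells (13.44%) stayed unnamed. The main types were macrophages with monocytes, osteoclasts and some dendritic cells among them (22402 cells), neutrophils (14548), mesenchymal cells (12045), B cells (5319), endothelial cells (3070) and pericytes with smooth muscle (845). Levels are CPM of the summed UMIs of a type in a library, and since each transcript is counted once at its 3′ end they were not divided by gene length. The families held 1702829 UMIs in the cells used, 0.3272% of the 520416556 UMIs, of which 797486 were MMP, 750731 TIMP, 138013 ADAMTS and 16599 ADAMTSL UMIs. A mean of at least 20 CPM in some cell type or subset was reached by 30 genes, and 7 genes, Mmp1b, Mmp7, Mmp20, Mmp21, Mmp24, Adamts13 and Adamts20, had fewer than 100 UMIs in all.

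Of the MMP genes, 9 lie next to each other on chromosome 9 in 427072 bases (mm10, chr9:7272514-7699585), in the order Mmp13, Mmp12, Mmp1b, Mmp3, Mmp10, Mmp8, Mmp27, Mmp20 and Mmp7. Mmp13 and Mmp3 had their highest level among the main types in mesenchymal cells, Mmp12 in macrophages and Mmp8 in neutrophils, so that neighbouring genes of 1 cluster had different cells as their main source. Mmp12 and Mmp1b, which lie on opposite strands, overlap, and Mmp1b had 1 UMI. The promoters of the 4 genes that carried most of the cluster's UMIs are shown from 250 bases before to 50 bases after the gene start, from RefSeq annotation of GRCm38.p6. Capitals mark the letters TGACTCA or TGAGTCA, which are each other's reverse complement and are the motif known to be bound by AP-1 (Fos and Jun) factors.
Mmp13, chr9:7272264-7272563, + strand: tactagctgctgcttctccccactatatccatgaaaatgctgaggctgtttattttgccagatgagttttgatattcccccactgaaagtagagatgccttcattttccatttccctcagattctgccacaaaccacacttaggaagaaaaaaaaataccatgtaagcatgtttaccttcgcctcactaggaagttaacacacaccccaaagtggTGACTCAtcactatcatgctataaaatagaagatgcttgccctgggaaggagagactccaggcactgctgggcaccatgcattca
Mmp3, chr9:7445572-7445871, + strand: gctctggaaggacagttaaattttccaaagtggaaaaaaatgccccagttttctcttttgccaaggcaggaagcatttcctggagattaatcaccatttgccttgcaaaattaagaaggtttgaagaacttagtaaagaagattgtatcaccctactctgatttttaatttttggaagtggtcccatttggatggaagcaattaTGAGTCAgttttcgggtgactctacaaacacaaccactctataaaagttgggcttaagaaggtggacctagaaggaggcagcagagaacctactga
Mmp12, chr9:7347124-7347423, + strand: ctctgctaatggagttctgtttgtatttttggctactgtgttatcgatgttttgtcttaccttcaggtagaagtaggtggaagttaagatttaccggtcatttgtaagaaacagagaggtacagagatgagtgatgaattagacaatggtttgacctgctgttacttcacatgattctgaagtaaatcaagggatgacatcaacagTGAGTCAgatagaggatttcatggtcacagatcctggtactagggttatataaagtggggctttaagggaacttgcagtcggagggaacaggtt
Mmp8, chr9:7558179-7558478, + strand: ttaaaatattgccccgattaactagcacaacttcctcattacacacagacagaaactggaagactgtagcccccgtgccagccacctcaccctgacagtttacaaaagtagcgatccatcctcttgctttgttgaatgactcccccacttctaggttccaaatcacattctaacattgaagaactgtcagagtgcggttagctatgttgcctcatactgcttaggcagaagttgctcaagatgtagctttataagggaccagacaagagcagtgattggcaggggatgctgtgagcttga
The letters began 35 bases before the start of Mmp13, 46 before that of Mmp3 and 44 before the second listed start of Mmp12, and were not in the windows of Mmp8 or of the first listed start of Mmp12. A promoter was listed for 35 of the 50 genes, which covered all 9 of the cluster. None was listed for Mmp2, Mmp9 and other genes outside it, so their promoters were not read. The motif occurred in the listed promoters of 6 genes, which also included Mmp10, Mmp1b and Mmp7. All 6 were among the 9 genes of the chromosome 9 cluster, with 0 of the 26 genes elsewhere that had a listed promoter. Over 32851 mouse promoters of the same length, 5.202% held the letters. Mmp13 and Mmp3 shared the motif and the mesenchymal source, Mmp12 shared the motif with another source, and no binding was measured.

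Mesenchymal cells were the largest source of all 4 families, but by unequal margins. They gave 83.9% ± 5.99 (SD, n = 6 libraries) of the TIMP UMIs, 81.6% of the ADAMTSL UMIs, 71.7% of the ADAMTS UMIs and 58.2% ± 9.76 of the MMP UMIs, against 34.6% of all UMIs. The remaining MMP UMIs came mainly from neutrophils (19.8% ± 10.7) and macrophages (16.7% ± 3.88), the remaining TIMP UMIs from macrophages (9.17%), and the remaining ADAMTS UMIs from endothelial cells (15.4%) and pericytes (5.97%). Neutrophils gave 1.27% of the TIMP UMIs. These shares follow the number of cells of a type as well as the transcripts per cell, and they are a description with no test, as are all levels between cell types.

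**Figure D1:**
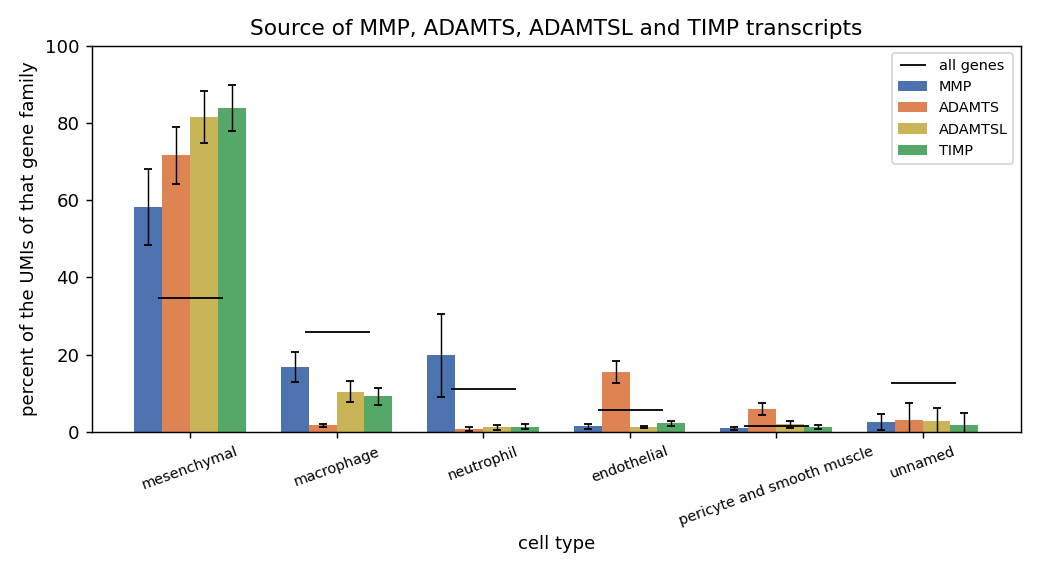
Share of the UMIs of each gene family (percent, y axis) by cell type (x axis), as the mean of 6 libraries with the SD as error bars. The black line marks the share of all UMIs in that type. In mesenchymal cells all 4 families lay above the 34.6% of all UMIs, whereas in neutrophils MMP alone lay above the line.

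Several proteases came mainly from 1 cell type, and others were divided. Of the UMIs of Mmp2, the gelatinase that cuts denatured collagen, 95.9% ± 2.64 came from mesenchymal cells, and of those of Mmp3, the stromelysin that cuts proteoglycans and activates other MMPs, 95.3% ± 6.36. Of the UMIs of Mmp12, the macrophage elastase, 94.9% ± 1.77 came from macrophages. Neutrophils gave 84.5% ± 8.82 of the UMIs of Mmp8, the neutrophil collagenase. The UMIs of Mmp9, the other gelatinase, were divided between neutrophils (49.0% ± 15.4) and macrophages (43.8% ± 13.7), where osteoclasts held 66280 of the 70557 UMIs, and those of Mmp19 between macrophages (53.4% ± 6.68) and mesenchymal cells (41.6% ± 7.82). Among the inhibitors, mesenchymal cells gave 93.2% ± 5.55 of the UMIs of Timp1 and 71.5% ± 8.51 of those of Timp2, for which macrophages gave 19.9% ± 4.73. Endothelial cells gave 70.7% ± 5.30 of the UMIs of Adamts9, a protease that cuts versican and aggrecan.

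**Figure D2:**
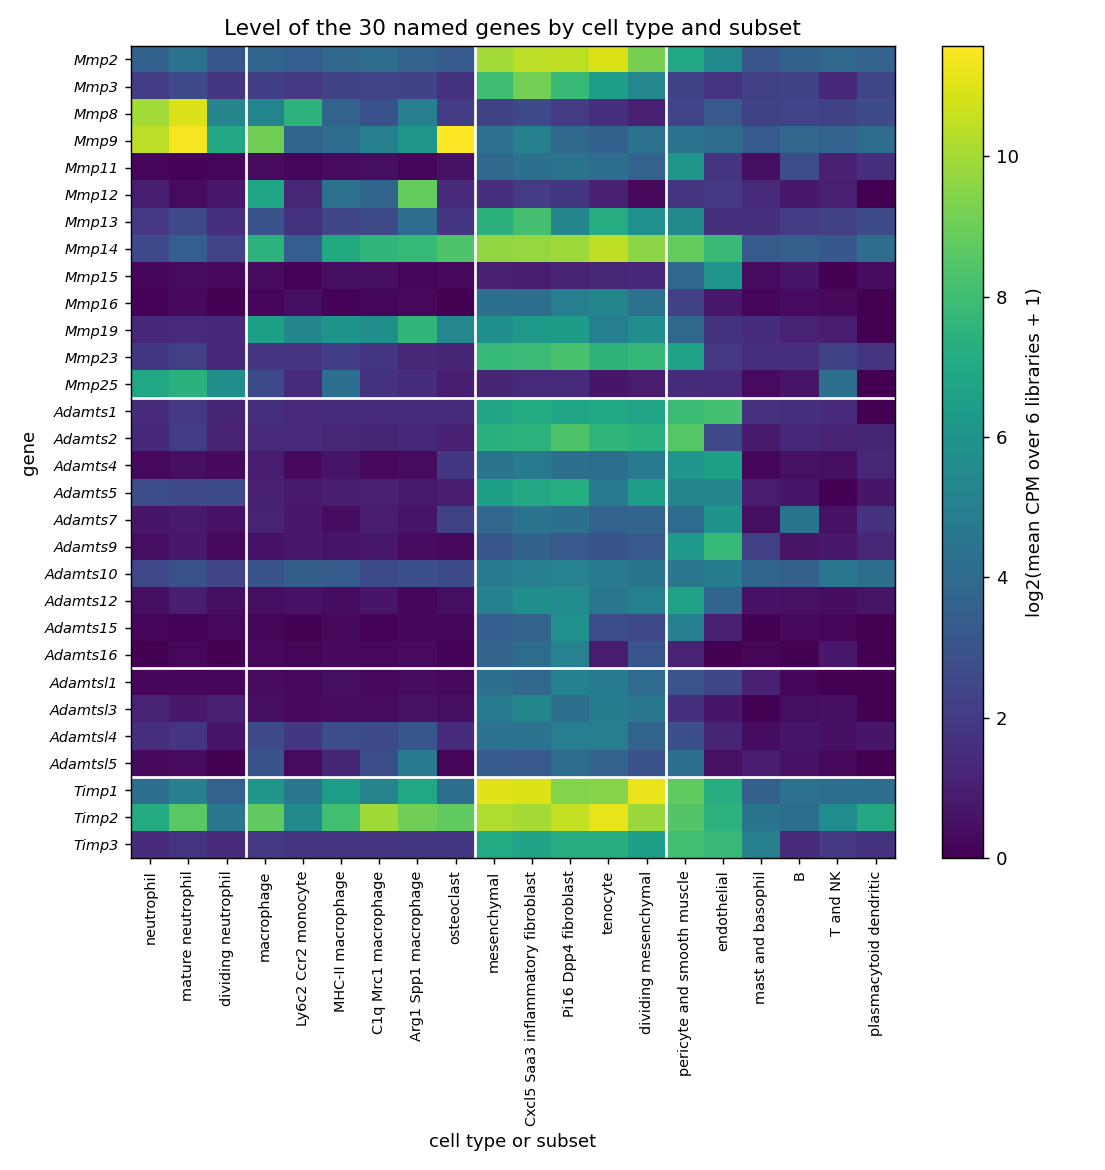
Level of the 30 genes that reached a mean of 20 CPM (rows) in 20 cell types and subsets (columns), as log2 of the mean CPM over 6 libraries plus 1 on the colour scale. White lines divide the gene families and the groups of cells, and the brightest fields are Mmp9 in osteoclasts and mature neutrophils, Timp1 in dividing mesenchymal cells and Timp2 in tenocytes.

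In mesenchymal cells the inhibitors Timp1 and Timp2 and the proteases Mmp2 and Mmp14 were at the highest levels of the family. Timp1 was at 1213, 1826 and 3380 CPM in the lowest, median and highest library, and Timp2 at 752.5, 1160 and 1600 CPM. Mmp2 followed at 710.8, 1021 and 1365 CPM and Mmp14, the membrane-type MMP that activates pro-MMP2 together with TIMP2, at 571.7, 780 and 1091 CPM. Timp1 had the highest median, but its range overlapped those of Timp2 and Mmp2, and the ranges of Timp2, Mmp2 and Mmp14 overlapped. These genes were measured in the same libraries, so overlapping ranges do not settle their order within a library. The secreted stromelysin and collagenase of the chromosome 9 cluster were lower and more variable, with Mmp3 at 83.5, 216.2 and 558.2 CPM and Mmp13 at 16.9, 196.1 and 387.2 CPM. Mmp23, a membrane protein that is released by cleavage, was at 101.0 to 321.2 CPM, Adamts2, which removes the N-propeptide of fibrillar procollagens, at 120.2 to 198.8 CPM, and Timp3 at 64.7 to 214.4 CPM.

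The mesenchymal subsets shared their leading proteases, Mmp2 and Mmp14. Tenocytes, with Scx, Tnmd and Fmod above their level in all cells, had a median of 2037 CPM of Mmp2, 1410 of Mmp14 and 2313 of Timp2, and 636.3 of Timp1. Fibroblasts marked by Pi16 and Dpp4 had medians of 1401 CPM of Mmp2, 867.8 of Mmp14 and 312.0 of Adamts2. They also had the highest means of the aggrecanase Adamts5 (141.9 CPM), of Mmp23 (300.1 CPM), Adamts15 (56.1 CPM), Adamts16 (34.3 CPM), Adamts10 (34.3 CPM), Adamtsl1 (32.4 CPM) and Adamtsl4 (30.3 CPM). Inflammatory fibroblasts marked by Cxcl5 and Saa3 had medians of 1272 CPM of Mmp2 and 858.4 of Mmp14, and dividing mesenchymal cells of 560.1 and 818.8 CPM. In the inflammatory fibroblasts Mmp3 ranged from 28.1 to 2780 CPM with a median of 128.4, and Mmp13 from 9.16 to 802.9 with a median of 207.2, so the mean of 561.8 CPM for Mmp3 rested largely on 1 library, while the mean for Mmp13 was 283.0 CPM. Adamtsl3 had its highest mean, 38.6 CPM, in the same fibroblasts, Mmp16 its highest, 39.2 CPM, in tenocytes, and Timp1 its highest, 2373 CPM, in dividing mesenchymal cells. One unnamed mesenchymal cluster of 645 cells, singled out after its values were seen, held Mmp3 at 1667 CPM, Mmp13 at 685.9 CPM and Timp1 at 4717 CPM over all libraries together. The 687 chondrocytes, 502 of them from KO2 and too few in some libraries for a fit, held Timp3 at 190.2 CPM over all libraries together, with ambient Timp3 at 77.5 CPM in KO2. Their Mmp2, 387.0 CPM, and Timp1, 499.3 CPM, did not exceed the ambient levels of KO2, 387.8 and 605.1 CPM.

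Neutrophils held transcripts of enzymes known to be stored in their granules, and no protein was measured. Mmp9 was at 1193, 1347 and 1678 CPM in the lowest, median and highest library, Mmp8 at 774.3, 966.9 and 1288 CPM, and Mmp25, a membrane-anchored MMP of leukocytes, at 90.05, 124.0 and 154.1 CPM. In mature neutrophils the medians were 2638, 1942 and 168.0 CPM, and in dividing neutrophils 121.9, 28.9 and 48.1 CPM, with no overlap between the subsets for any of the 3 genes. No subset name was given to 6836 of the 14548 neutrophils. A main cluster of 3771 neutrophils, picked after its values were seen, held 3433, 3088 and 267.0 CPM of the same genes over all libraries together. The named subsets therefore do not show where these levels peaked. Timp2 was at 112.5 to 165.8 CPM in neutrophils and 305.0 to 439.5 CPM in the mature ones.

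Among macrophages, each subset had its own pattern. Osteoclasts, the bone-resorbing cells of this lineage, held Mmp9 at 2346, 2860 and 4101 CPM, the highest mean of any MMP gene in any named type or subset (3043 CPM), and Mmp14 at 263.9 to 430.7 CPM. Macrophages marked by Arg1 and Spp1 held Mmp12 at 149.5, 342.8 and 1026 CPM and Mmp19 at 143.5 to 236.1 CPM, and Adamtsl5 had its highest mean there (27.1 CPM). Macrophages marked by C1q genes and Mrc1 had the highest Timp2 of the macrophage subsets, 799.9 to 1254 CPM, while monocytes marked by Ly6c2 and Ccr2 had the lowest, 33.9 to 67.7 CPM. Mmp8 was at 152.2, 117.1 and 164.3 CPM in these monocytes in WT1 to WT3 and 228.0, 202.8 and 193.6 CPM in KO1 to KO3, above the ambient RNA of the same library (56.2 to 161.8 CPM) in every library but WT1.

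Several ADAMTS genes were at high levels in vessel cells, although mesenchymal cells gave the largest share of the UMIs of Adamts1 (63.2%, against 25.6% from endothelial cells), Adamts2 (87.7%) and Adamts7 (46.7%). Those of Adamts4 came from endothelial and mesenchymal cells in like amounts in wild-type libraries (means of 44.6% and 44.3%), against 29.5% and 57.3% in Nlrp3-/- libraries. In endothelial cells Adamts1, which cuts versican and aggrecan, was at 192.8, 266.0 and 392.7 CPM, Adamts9 at 172.4, 206.2 and 272.0 CPM, Adamts4, an aggrecanase, at 54.1 to 125.1 CPM and Adamts7, which cuts the cartilage protein COMP, at 36.8 to 85.3 CPM. The membrane-type Mmp15 was at 57.8 to 80.0 CPM. In pericytes and smooth muscle Adamts2 was at 263.7 to 483.6 CPM, Adamts12 at 72.4 to 129.7 CPM, Mmp11 at 42.7 to 98.2 CPM and Timp3 at 167.0 to 366.6 CPM. The Timp3 ranges of pericytes, endothelial cells (156.6 to 283.6 CPM) and mesenchymal cells overlapped.

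The ratio of summed MMP to summed TIMP UMIs ordered the cells from rich in protease transcripts to rich in inhibitor transcripts. Protein and enzyme activity were not measured. The ratio was highest in neutrophils, with 11.2, 16.8 and 21.4 in the lowest, median and highest library, and then 8.49 to 14.7 in mature neutrophils and 7.03 to 9.91 in osteoclasts. Macrophages as a whole were at 1.54 to 2.21, but their subsets lay on both sides, with 2.62 to 5.26 in Ly6c2 Ccr2 monocytes and 0.268 to 0.418 in C1q Mrc1 macrophages. Endothelial cells were at 0.629 to 0.873 and pericytes at 0.661 to 1.06. The ratio of ADAMTS to TIMP UMIs had another order: 1.13 to 1.56 in endothelial cells, 0.767 to 1.13 in pericytes, 0.117 to 0.233 in mesenchymal cells and 0.0265 to 0.0431 in macrophages. In mesenchymal cells the MMP to TIMP ratio was 0.434, 0.491 and 0.844 in WT1 to WT3 and 1.05, 0.887 and 0.944 in KO1 to KO3. The groups did not overlap, with WT3 next to the knockout libraries. In C1q Mrc1 macrophages the knockout libraries were the lower ones, with 0.363, 0.418 and 0.388 against 0.313, 0.268 and 0.308, and no test was made of these sums. Pericytes, Pi16 Dpp4 fibroblasts and inflammatory fibroblasts did not overlap either, with the knockout libraries higher, and all other types and subsets overlapped. Both examples were picked after their values were seen. In the types and subsets whose ratio did not overlap, 17.3% to 21.6% of all single genes tested did not overlap either. Both fibroblast subsets are parts of the mesenchymal cells. The makeup of the mesenchymal cells varied between libraries, as given below, and its part in their ratio was not tested.

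**Figure D3:**
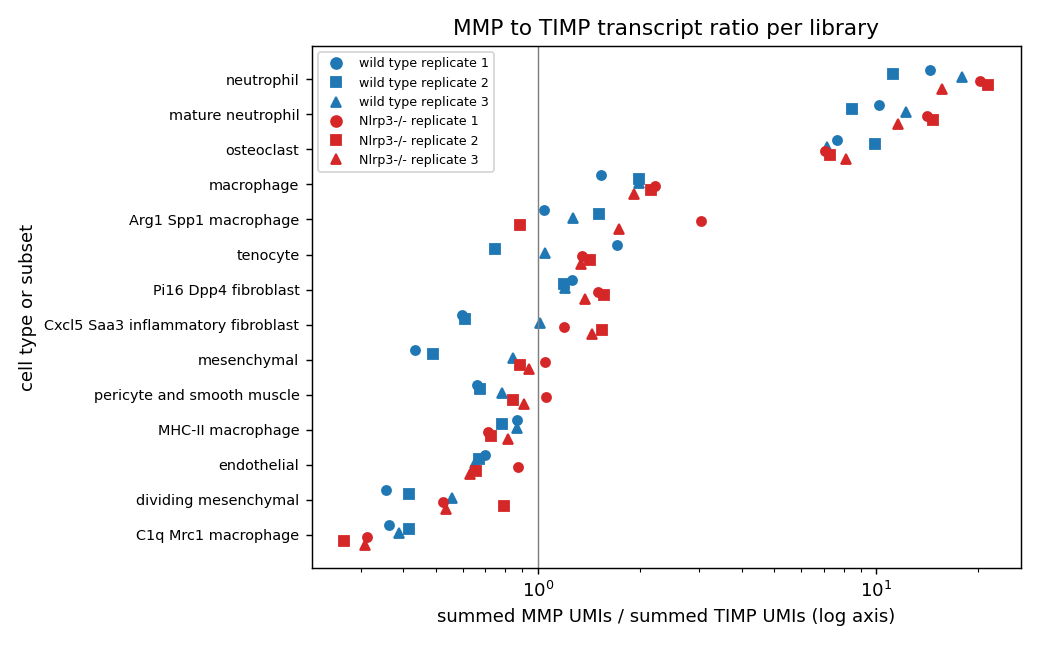
Ratio of summed MMP UMIs to summed TIMP UMIs (log axis) in each library for cell types and subsets with at least 100 TIMP UMIs in every library, with wild-type libraries in blue and Nlrp3-/- libraries in red. The grey line marks equal counts, which neutrophils (11.2 to 21.4) and osteoclasts (7.03 to 9.91) lay above and C1q Mrc1 macrophages (0.268 to 0.418) below.

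The genotypes were compared with edgeR's quasi-likelihood test on UMIs summed per library, with Benjamini-Hochberg adjustment over all genes tested in a cell type and a threshold of 0.05. Over 9 cell types and 11 subsets, 43 of the 50 genes could be tested in at least 1 fit and 1 in all 20, and 6 of 359 tests passed, 3 with a higher and 3 with a lower level in Nlrp3-/- mice, while 74 (20.6%) had an unadjusted p below 0.05. Over all genes, 0.707% of the tests in the same 20 fits passed and 15.4% had an unadjusted p below 0.05, 8.40% to 22.2% by fit. DESeq2, which adjusts over fewer genes in some fits, called 15 of 276 tests of the family genes and 3.22% of those of all genes. The 7 genes tested in no fit were too low. By fit, 12.5% to 31.3% of all genes tested did not overlap between genotypes. Each gene given below as without overlap is to be read against that share. The tests are not independent, because subsets are parts of their types and all share the 6 libraries. Without WT3, 40 of 380 tests passed, 20 in each direction, a share like the 10.5% of all genes. The p-values measure the spread between these 6 libraries.

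In mesenchymal cells 0 of 40 genes passed with edgeR, beside 16 of 14831 genes in all (0.108%), 6 had an unadjusted p below 0.05 against 12.6% of all genes, and 1 passed with DESeq2, which called 1.77% of all genes. Their median log2 fold change was -0.03, against 0.04 over all genes. Timp1 was at 3380, 2928 and 1755 CPM in WT1 to WT3 and 1213, 1853 and 1800 CPM in KO1 to KO3 (log2 fold change -0.79, SE 0.30, edgeR adjusted p = 0.381, and -1.04 with adjusted p = 0.0657 without WT3). WT3 was the lowest wild-type library and lay within the knockout range. Timp1 lies on the X chromosome, and genotype and sex could not be told apart in these libraries. Mmp23 was at 263.3, 321.2 and 195.3 CPM against 205.6, 101.0 and 205.1 CPM (-0.68, SE 0.30, edgeR adjusted p = 0.401, and -0.87 with adjusted p = 0.139 without WT3), also with overlap. Adamtsl4, which binds fibrillin microfibrils, was at 12.9, 12.8 and 18.98 CPM against 21.7, 28.4 and 26.5 CPM, without overlap (0.72, SE 0.21, edgeR adjusted p = 0.347, and 0.91 with adjusted p = 0.0523 without WT3). The gene that passed with DESeq2 was Adamts14, a procollagen N-proteinase, at 28.1, 27.4 and 19.8 CPM against 18.6, 10.4 and 11.4 CPM (edgeR log2 fold change -0.98, SE 0.24, adjusted p = 0.324, and -1.14 with adjusted p = 0.059 without WT3).

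Mmp13, a collagenase that cuts fibrillar collagens, showed how much WT3 weighed. It was at 18.2, 16.9 and 219.2 CPM in WT1 to WT3 and 387.2, 196.2 and 195.9 CPM in KO1 to KO3, so that WT3 lay inside the knockout range and WT1 and WT2 far below it. With all libraries the log2 fold change was 1.54 (SE 1.00, edgeR adjusted p = 0.495), and without WT3 it was 3.79 (SE 0.38, edgeR adjusted p = 0.0426). Without WT3, 653 of 15305 genes (4.27%) passed in mesenchymal cells, including 2 of 40 family genes, Mmp13 and Adamts15 (-1.57, SE 0.25, edgeR adjusted p = 0.0443). In ambient RNA, read from barcodes with at most 100 UMIs, Mmp13 followed the same pattern at 14.4, 17.4 and 124.4 CPM against 113.4, 103.9 and 79.4 CPM. Mmp13 was picked here after its values were seen. The makeup of the mesenchymal cells also varied between libraries. Tenocytes were 2.93%, 3.67% and 29.8% of them in WT1 to WT3 and 2.49%, 31.4% and 20.1% in KO1 to KO3, and inflammatory fibroblasts 39.2%, 47.3% and 16.8% against 9.08%, 9.56% and 15.8%. Unnamed clusters were 67.4% of the mesenchymal cells in KO1 against 21.5% to 46.5% elsewhere, and chondrocytes 26.2% in KO2 against 0.19% to 6.98%. The part of this makeup in the Mmp13 levels was not tested.

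**Figure D4:**
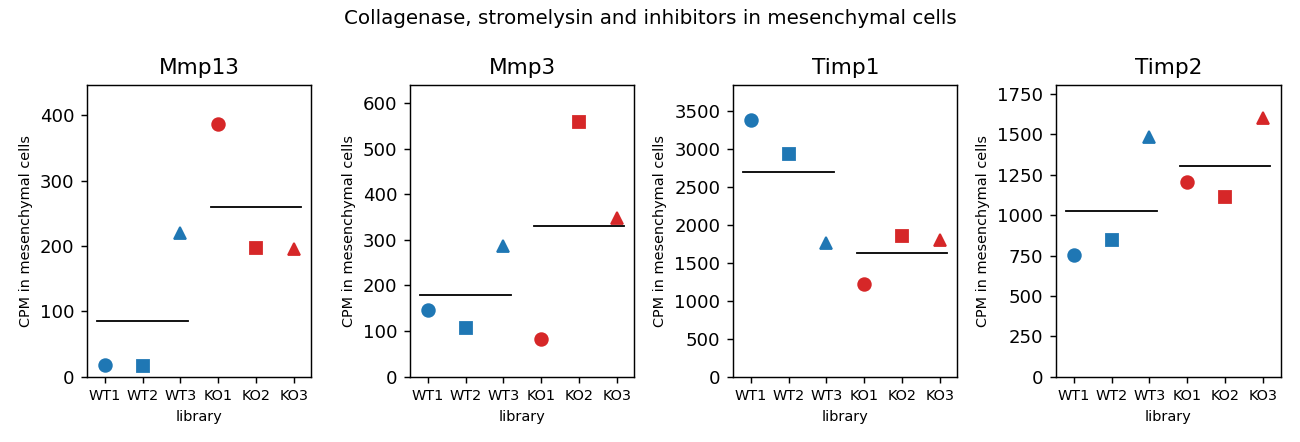
CPM in mesenchymal cells (y axis) in each library (x axis) for the collagenase Mmp13, the stromelysin Mmp3 and the inhibitors Timp1 and Timp2, with wild-type libraries in blue, Nlrp3-/- libraries in red and group means as lines. For Mmp13, WT3 at 219.2 CPM lay with the knockout libraries and far from WT1 and WT2, and for Timp1 WT3 was the lowest wild-type library.

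In the mesenchymal subsets 2 genes passed. In Pi16 Dpp4 fibroblasts Timp1, a soluble inhibitor, was at 749.8, 935.0 and 1143 CPM in WT1 to WT3 and 431.5, 520.6 and 275.1 CPM in KO1 to KO3, every knockout library below every wild-type library. Timp1 gave 7773 of the 29712 TIMP UMIs of these cells. The log2 fold change was -1.29 (SE 0.25, edgeR adjusted p = 0.0441) and without WT3 it was -1.19 (edgeR adjusted p = 0.0262). It did not pass without WT2, KO1 or KO3 (edgeR adjusted p = 0.18, 0.174 and 0.178), the change shrank to -0.33 (edgeR adjusted p = 0.728) with no test against ambient RNA, and these fibroblasts numbered 60 to 427 a library. In all, Timp1 passed there in 10 of 18 alternative settings. In this subset 1 of 30 genes passed beside 0.567% of all genes, and 6 had an unadjusted p below 0.05, against 14.2% of all genes. Ambient Timp1 was at 550.1 to 1096 CPM in the wild-type libraries and 350.7 to 641.0 CPM in the knockout libraries. It lay above these fibroblasts in every library but WT3 and KO1, and its part in the difference was not tested.

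In tenocytes Mmp3 was at 18.2, 7.31 and 41.8 CPM against 88.7, 195.5 and 182.8 CPM, without overlap (log2 fold change 2.5, SE 0.43, edgeR adjusted p = 0.0222, and 3.90 with adjusted p = 0.00416 without WT3). This was 1 of 29 genes tested, beside 0.4% of all genes, and 9 had an unadjusted p below 0.05, against 10.1% of all genes. It did not pass without WT1, KO2 or KO3 (edgeR adjusted p = 0.0647, 0.066 and 0.0642), and it turned to -0.24 (edgeR adjusted p = 0.948) when the family genes were kept among those the clusters were built from. It was 1.45 (edgeR adjusted p = 0.383) with no test of barcodes against ambient RNA. WT1 held 34 tenocytes and KO1 50. Ambient Mmp3 was at 27.7, 56.6 and 79.0 CPM in WT1 to WT3 and 29.6, 204.7 and 86.3 CPM in KO1 to KO3, above the tenocytes in every library but KO1 and KO3. In inflammatory fibroblasts 0 of 34 genes passed (0.168% of all genes) and in dividing mesenchymal cells 0 of 29 (0.0878%), with 11 and 1 at an unadjusted p below 0.05. DESeq2 called Adamtsl1 and Mmp23 in inflammatory fibroblasts, beside 1.8% of all genes, and Mmp3, Mmp23 and Timp3 in tenocytes, beside 5.26%.

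In macrophages 0 of 25 genes passed with edgeR, beside 66 of 13067 genes in all (0.505%), 0 passed with DESeq2, which called 4.84% of all genes, and 3 had an unadjusted p below 0.05. Their median log2 fold change was 0.27, with 18 above and 7 below 0, against 0.01 over all genes. Timp2 was at 310.7, 328.9 and 393.8 CPM in WT1 to WT3 and 412.3, 538.3 and 557.5 CPM in KO1 to KO3, without overlap (log2 fold change 0.38, SE 0.13, edgeR adjusted p = 0.186, and 0.43 with adjusted p = 0.0534 without WT3). Ambient Timp2 was at 291.5, 395.5 and 563.9 CPM in WT1 to WT3 and 547.3, 447.6 and 686.0 CPM in KO1 to KO3, above the macrophages in every library but WT1 and KO2, and its part in the difference was not tested. Mmp9 was at 287.6, 476.6 and 459.7 CPM against 446.6, 858.8 and 668.4 CPM (0.51, SE 0.24, edgeR adjusted p = 0.264, and 0.56 with adjusted p = 0.188 without WT3), and Timp1 at 85.9, 89.6 and 57.3 CPM against 81.4, 46.3 and 58.2 CPM (-0.49, SE 0.27, edgeR adjusted p = 0.324, and -0.70 with adjusted p = 0.075 without WT3), both with overlap. The change of Mmp9 turned to -0.15 with at most 5% mitochondrial UMIs. Ambient Timp1, at 350.7 to 1096 CPM, lay above the macrophages in every library. Osteoclasts, which gave 93.9% of the Mmp9 UMIs of macrophages, were 3.37%, 3.91% and 5.69% of these cells in WT1 to WT3 and 6.49%, 8.15% and 7.76% in KO1 to KO3, without overlap. Within osteoclasts Mmp9 was at 2346, 2944 and 2663 CPM against 2776, 4101 and 3430 CPM, with overlap, and the part of the osteoclast share in the macrophage levels of Mmp9 was not tested. The C1q Mrc1 macrophages and the Ly6c2 Ccr2 monocytes, high and low in Timp2, also varied as shares of macrophages, at 10.1%, 12.2% and 11.9% against 16.9%, 10.9% and 21.9%, and at 14.3% to 21.9% against 8.24% to 20.3%. Without WT3, 2762 of 13618 genes (20.3%) passed, including 1 of 28 family genes, Mmp13 (1.74, SE 0.49, edgeR adjusted p = 0.0467), which macrophages held at 14.6 CPM or less, below ambient Mmp13 in every library.

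Of the macrophage subsets, C1q Mrc1 macrophages had 1 of 13 genes past the threshold, beside 0.466% of all genes, and 6 had an unadjusted p below 0.05, against 17.5% of all genes. Mmp12 was at 1.84, 4.20 and 6.65 CPM in WT1 to WT3 and 25.2, 17.4 and 17.8 CPM in KO1 to KO3, without overlap (log2 fold change 2.18, SE 0.32, edgeR adjusted p = 0.013, and 2.49 with adjusted p = 0.00194 without WT3). The call rested on 249 UMIs and did not pass without WT2, KO1 or KO3 (edgeR adjusted p = 0.0518, 0.0692 and 0.053). At these low wild-type levels the knockout libraries alone could have brought Mmp12 past the filter on low counts. Its call is therefore not read as support for a difference. The change shrank to 0.77 (edgeR adjusted p = 0.513) with no test of barcodes against ambient RNA, to 0.85 (adjusted p = 0.48) at Leiden resolution 2.0 and to 1.51 (adjusted p = 0.127) with no doublets removed. Ambient Mmp12 was at 6.63, 19.1 and 14.1 CPM in the wild-type libraries and 81.6, 7.71 and 36.5 CPM in the knockout libraries, above the cells in every library but KO2. In Arg1 Spp1 macrophages, where Mmp12 was highest, it was at 179.2, 412.6 and 273.0 CPM against 1026, 149.5 and 663.5 CPM, with overlap (1.03, SE 0.60, edgeR adjusted p = 0.474, and 0.97 with adjusted p = 0.45 without WT3). In the other subsets edgeR called 0 genes: 0 of 14 in Arg1 Spp1 macrophages (0.209% of all genes), 0 of 8 in Ly6c2 Ccr2 monocytes (0.481%), 0 of 16 in MHC-II macrophages (1.07%) and 0 of 9 in osteoclasts (0.668%), with 1, 2, 6 and 3 at an unadjusted p below 0.05. The shares of all genes with such a p were 12.6%, 13.8%, 18.7% and 18.8% in the same order. DESeq2 called Mmp19 in the monocytes, beside 0.836% of all genes, Timp1 in the MHC-II macrophages, beside 5.48%, and Mmp9 as well as Mmp12 in the C1q Mrc1 macrophages, beside 3.42%.

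In neutrophils 2 of 19 genes passed, beside 419 of 10415 genes in all (4.02%), and 4 had an unadjusted p below 0.05, against 22.2% of all genes. Their median log2 fold change was 0.03, as over all genes. Timp2 was at 138.5, 157.2 and 165.8 CPM in WT1 to WT3 and 113.6, 112.5 and 132.8 CPM in KO1 to KO3, without overlap (log2 fold change -0.61, SE 0.14, edgeR adjusted p = 0.0378, and -0.63 with adjusted p = 0.0171 without WT3). It did not pass when any library other than WT3 was left out (edgeR adjusted p = 0.0784 to 0.192), nor when libraries were scaled by their totals alone (-0.36, edgeR adjusted p = 0.123) or no doublets were removed (-0.28, edgeR adjusted p = 0.341). In all, Timp2 passed in 8 of 18 alternative settings. Ambient Timp2 was higher than in neutrophils in every library, at 291.5 to 686.0 CPM. Mature neutrophils, which held more Timp2, were 55.1%, 51.7% and 37.1% of neutrophils in WT1 to WT3 and 18.7%, 19.8% and 21.6% in KO1 to KO3. Within mature neutrophils Timp2 was at 348.3, 379.6 and 429.9 CPM against 305.0, 409.9 and 439.5 CPM, with overlap and a log2 fold change of -0.08 (SE 0.18, edgeR adjusted p = 0.847, and -0.06 with adjusted p = 0.858 without WT3).

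Adamtsl4 was at 0.795, 0.609 and 0.693 CPM in WT1 to WT3 and 4.17, 2.58 and 2.88 CPM in KO1 to KO3 in neutrophils, without overlap (1.83, SE 0.37, edgeR adjusted p = 0.0266, and 1.74 with adjusted p = 0.0253 without WT3). It did not pass when any library other than WT3 was left out (edgeR adjusted p = 0.0578 to 0.117). This was a difference between very low levels, resting on 96 UMIs and below the ambient level of the same library, 4.14 to 12.9 CPM, in all 6 libraries. The filter on low counts asks for a minimum level in only as many libraries as a group holds. The knockout libraries alone could thus bring Adamtsl4 into the test, and its call is not read as support for a difference. The granule enzymes did not pass. Mmp8 was at 1003, 774.3 and 1288 CPM against 928.6, 1098 and 931.3 CPM (-0.30, SE 0.15, edgeR adjusted p = 0.28, and -0.18 with adjusted p = 0.403 without WT3), and Mmp9 at 1193, 1208 and 1678 CPM against 1397, 1548 and 1296 CPM (-0.19, SE 0.14, edgeR adjusted p = 0.453, and -0.09 with adjusted p = 0.651 without WT3), both with overlap. The direction of Mmp9 turned to 0.06 when libraries were scaled by their totals alone. That scaling moved the median of all genes by 0.27 in neutrophils, 0.17 in macrophages and 0.06 in mesenchymal cells, and the number of higher genes among those called from 102 of 419 to 316 of 519 in neutrophils and from 24 of 66 to 43 of 78 in macrophages. Without WT3, 1921 of 10670 genes (18.0%) passed in neutrophils, including 4 of 20 family genes: Timp2, Adamtsl4, Mmp13 (2.00, SE 0.34, edgeR adjusted p = 0.00702) and Timp1 (-1.04, SE 0.29, edgeR adjusted p = 0.0388). The largest neutrophil cluster held Mmp13 at 3.71 CPM and Timp1 at 42.0 CPM over all libraries together. Ambient Mmp13 was at 14.4 to 124.4 CPM and ambient Timp1 at 350.7 to 1096 CPM, and their part in these differences was not tested.

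In dividing neutrophils, the precursors in which granule proteins are first made, Mmp8 was at 80.8, 49.4 and 33.5 CPM in WT1 to WT3 and 24.4, 18.4 and 21.8 CPM in KO1 to KO3, without overlap (log2 fold change -1.76, SE 0.30, edgeR adjusted p = 0.00952, and -2.10 with adjusted p = 3.56e-05 without WT3). It did not pass without KO2 or KO3 (edgeR adjusted p = 0.0714 and 0.0557). This was 1 of 9 genes tested, of which 3 had an unadjusted p below 0.05, beside 1.22% of all genes called, and 0 of 7 passed in mature neutrophils, beside 1.84%, with 0 at an unadjusted p below 0.05. Of all genes, 15.8% in dividing and 17.8% in mature neutrophils had such a p. Ambient Mmp8 was at 56.2 to 161.8 CPM in the wild-type libraries and 57.7 to 106.5 CPM in the knockout libraries, above the dividing neutrophils in every library, and its part in the difference was not tested.

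**Figure D5:**
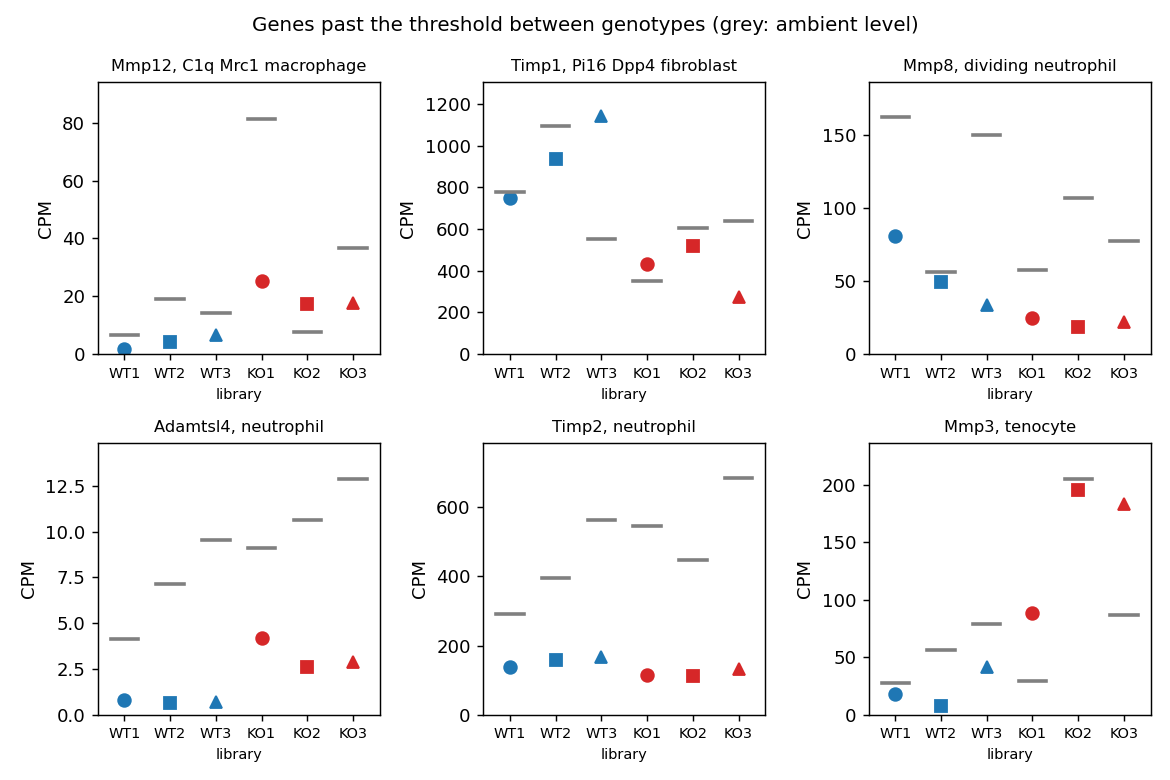
CPM (y axis) in each library (x axis) of the 6 genes that passed the threshold between genotypes, each in its cell type or subset, with wild-type libraries in blue and Nlrp3-/- libraries in red. Grey lines mark the level of the gene in ambient RNA of the same library, which lay above the cells in every library for Timp2 and Adamtsl4 in neutrophils and Mmp8 in dividing neutrophils, and in every library but KO2 for Mmp12 in C1q Mrc1 macrophages. It also lay above Timp1 in Pi16 Dpp4 fibroblasts in every library but WT3 and KO1. For Mmp3 in tenocytes it lay above the cells in every library but KO1 and KO3.

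In the 6 other cell types edgeR called 0 of 77 tests, with 13 at an unadjusted p below 0.05, against 8.40% to 20.2% of all genes by type. Tested genes were 27 in endothelial cells (0.312% of all genes called), 25 in pericytes and smooth muscle (0.335%), 10 in B cells (0.299%), 8 in mast cells and basophils (0.227%), 6 in T and NK cells (1.01%) and 1 in plasmacytoid dendritic cells (1.65%). DESeq2 called 1, Timp3 in pericytes and smooth muscle, beside 12.5% of all genes. Both leading vessel ADAMTS genes overlapped between genotypes. Adamts9 was at 207.3, 177.1 and 272.0 CPM in WT1 to WT3 and 172.4, 252.1 and 205.1 CPM in KO1 to KO3 in endothelial cells (-0.19, SE 0.17, edgeR adjusted p = 0.516, and -0.08 with adjusted p = 0.741 without WT3), and Adamts1 at 220.2, 192.8 and 392.7 CPM against 239.7, 292.2 and 327.7 CPM (-0.02, SE 0.23, edgeR adjusted p = 0.965, and 0.28 with adjusted p = 0.2 without WT3). Of the 27 genes tested in endothelial cells, 5 did not overlap, Mmp2, Mmp13, Adamts8, Adamts10 and Adamts18, and none of these passed. Over all genes tested there, 23.4% did not overlap, a share no lower than that of the family. Mmp13 and Adamts8 were low in wild-type libraries and could have entered the test through the knockout libraries alone. Mmp2 was at 29.4, 29.5 and 42.6 CPM against 61.9, 47.9 and 56.2 CPM (0.60, SE 0.17, edgeR adjusted p = 0.141), below ambient Mmp2 of 181.2 to 528.1 CPM in every library. Adamts18, an orphan ADAMTS protease, was at 3.02, 2.65 and 1.76 CPM against 7.25, 4.67 and 6.05 CPM (1.09, SE 0.33, edgeR adjusted p = 0.152), above ambient RNA in every library. Without WT3, 4 of 28 genes passed in endothelial cells with a higher level in Nlrp3-/- mice, Mmp2, Mmp13, Adamts7 and Adamts8 (edgeR adjusted p = 0.0184, 0.0202, 0.0305 and 0.0215), beside 18.9% of all genes.

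Without WT3, the calls in all types and subsets fell on 20 of the genes, and 4 of these passed in more than 2 fits. Over all genes, 10.5% of the tests in these fits passed, and the counts below are to be read against that share. Mmp13 passed in 9 of the 14 fits that tested it, higher in Nlrp3-/- libraries in each, among them endothelial cells at 0.604, 0.398 and 1.41 CPM in WT1 to WT3 and 4.14, 3.11 and 2.31 CPM in KO1 to KO3. Those levels lay below ambient Mmp13 in every library. The knockout libraries alone could bring a gene this low into the test, so the endothelial call is not read as support for a difference. The same can hold in other fits where Mmp13 was low. Mmp23 passed in 5 of 11 fits, Timp1 in 4 of 19 and Mmp9 in 3 of 19, lower in each. Mmp9 fell in this way in dividing neutrophils (-0.63, edgeR adjusted p = 0.0336), MHC-II macrophages (-1.27, edgeR adjusted p = 0.00751) and C1q Mrc1 macrophages (-2.09, edgeR adjusted p = 0.00589). In the C1q Mrc1 macrophages Mmp9 was at 30.5, 81.8 and 39.9 CPM in WT1 to WT3 and 13.46, 8.69 and 19.1 CPM in KO1 to KO3, below its ambient level of 247.1 to 323.5 CPM. These genes were picked after their values were seen.

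Whether the genotype difference itself depended on the cell type was tested with an interaction term and library as a block, for pairs of the 3 main types. Between neutrophils and macrophages 1 of 25 family genes passed, beside 1.13% of all genes. It was Timp2, whose genotype effect was lower in neutrophils than in macrophages by 1.02 on the log2 scale (log2 difference -1.02, SE 0.14, edgeR adjusted p = 0.0113, and -1.08 with adjusted p = 0.0045 without WT3). Leaving out KO3 gave -1.02 with an edgeR adjusted p of 0.0622. Between mesenchymal cells and neutrophils 0 of 40 passed, beside 0.397% of all genes, and between mesenchymal cells and macrophages 0 of 40, beside 0.0%, with 7 at an unadjusted p below 0.05 in each. Of all genes, 1799 of 14602 and 1441 of 15534 had such a p.

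Other genes of matrix proteolysis were read from 2 lists of 21 genes. Of the proteolysis regulators, such as the plasminogen activators Plau and Plat and the proenzyme convertase Furin, 0 of 211 tests passed with edgeR and 41 had an unadjusted p below 0.05. Of the other matrix proteases, 3 of 321 passed (0.935%), a share near the 0.707% of all genes in these fits, and 69 had an unadjusted p below 0.05. Over all genes, 15.4% of the tests had such a p. In neutrophils Adam8, a membrane protease of leukocytes, was at 242.2, 316.3 and 319.7 CPM in WT1 to WT3 and 204.5, 179.5 and 182.7 CPM in KO1 to KO3 (-0.88, SE 0.16, edgeR adjusted p = 0.0158, and 0.00878 without WT3). The lysosomal protease Ctsd was at 836.3, 1081 and 484.9 CPM against 388.2, 357.8 and 363.1 CPM (-1.40, SE 0.29, edgeR adjusted p = 0.0276, and 0.00053 without WT3). Mature neutrophils were 37.1% to 55.1% of neutrophils in wild-type and 18.7% to 21.6% in Nlrp3-/- libraries. The part of this makeup in the levels of Adam8 and Ctsd was not tested. In MHC-II macrophages the secreted serine protease Htra3 was at 5.17, 6.30 and 8.64 CPM against 15.5, 17.0 and 17.1 CPM (1.17, SE 0.20, edgeR adjusted p = 0.0251, and 0.00292 without WT3). None of these 3 overlapped between the genotypes. Of all genes tested, 31.3% in neutrophils and 24.3% in MHC-II macrophages did not overlap either.

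For 4 MMP and 2 TIMP genes chosen for this, the genes with the most similar level were sought over the 20 types and subsets among 10141 genes, by Pearson's r of log2 mean CPM. For Mmp3 these were Aqp2 (r = 0.99), Pappa (0.983) and Masp1 (0.97), and for Mmp13 Arhgef19 (0.947) and Lox (0.946). For Mmp14 they were Upp2 (0.97), Cd276 (0.965) and Rcan1 (0.959), and for Mmp9, whose profile joins neutrophils and osteoclasts, Rufy4 (0.901), Txn1 (0.864) and Tbc1d10b (0.815). For Timp1 they were Me1 (0.967), P4ha2 (0.959) and Efemp2 (0.955), and for Timp2 Aga (0.928), Rin2 (0.891) and Anpep (0.885). The values describe these libraries and have no p, since the points share libraries and subsets are contained in their types.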

How the data were processed

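The submitters' processing notes give alignment to mm10 with Cell Ranger 2.1.1, whereas the header of the matrices gives software version 4, and this conflict was not resolved. The deposited matrices were unfiltered UMI counts per gene and barcode, with no normalization. The genes and gene lists described were chosen with earlier results of these data known. Barcodes with at least 500 UMIs, 200 genes, at most 10% mitochondrial UMIs and a profile unlike ambient RNA (10000 simulations, false discovery rate 0.01) were kept, likely doublets (13279 cells) were removed by Scrublet scores at 0.8% per 1000 cells, and cells were clustered with scanpy 1.11.5 (2000 variable genes, 30 components, 15 neighbours, Leiden resolution 1.0). Clusters were named where at least 3 markers were detected, with thresholds set after the clusters were seen, and a cluster that drew more than 75% of its members from a single library at below-median depth was set aside. Counts were summed per library and type, and types with at least 20 cells in every library were tested with edgeR 4.0.16 (TMM, filterByExpr, quasi-likelihood, Benjamini-Hochberg over all genes), which was checked on simulated counts. DESeq2 1.42.0 and the other settings are alternatives. Named are genes with a mean of at least 20 CPM, genes past the threshold, and in each of the 3 main types the 3 of lowest p among genes of at least 20 CPM there. Libraries held 97042713 to 134901999 UMIs, of which 57362758 (KO1) to 104524992 (KO3) were in the cells used and set the precision. Some genes that these rules select are not reported here.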

Additional observations from a re-analysis of the deposited data

Results flagged for a closer look

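The genotype difference of Timp2 differed between neutrophils and macrophages, by the test of the difference itself: the log2 difference was -1.02 (SE 0.14, edgeR adjusted p = 0.0113). In neutrophils Timp2 was lower in all 3 Nlrp3-/- libraries than in any wild-type library (log2 fold change -0.61), and in macrophages it was higher in all 3 (0.38, edgeR adjusted p = 0.186). Leaving out 1 library at a time gave -1.13 to -0.89, and the difference did not pass without KO3 (-1.02, edgeR adjusted p = 0.0622). The share of mature neutrophils among neutrophils, 37.1% to 55.1% in wild-type and 18.7% to 21.6% in Nlrp3-/- libraries, moved with it. Among macrophages the C1q Mrc1 subset, high in Timp2, was 10.1% to 12.2% in wild-type and 10.9% to 21.9% in Nlrp3-/- libraries, and the Ly6c2 Ccr2 monocytes, low in Timp2, 14.3% to 21.9% and 8.24% to 20.3%, both with overlap. The part of these shares was not tested. Ambient Timp2 was at 291.5 to 563.9 CPM in wild-type and 447.6 to 686.0 CPM in Nlrp3-/- libraries, above neutrophils in every library and above macrophages in every library but WT1 and KO2, and its part in the difference was not tested. Within mature neutrophils the log2 fold change of Timp2 was -0.08 (edgeR adjusted p = 0.847).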

How the results depend on the processing

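Over 549 values under alternatives for 36 results, 474 kept their direction and their side of the threshold or stayed near the reported value, 41 no longer passed, 31 moved and 3 reversed. The cause of the changes was not tested. In neutrophils, where 2 genes passed, 4 did without a filter on low counts, 1 with a replicate block, 1 with library totals alone (chosen after seeing the data), 1 with the set-aside clusters kept, and 0 at Leiden resolution 2.0 or with no doublets removed. In mesenchymal cells and in the other cell types, where 0 passed, 1 did with DESeq2 in each, and 10 did in the other types without a filter. In the subsets, where 4 passed, 34 did without a filter, 11 with DESeq2, and 2 each at resolution 2.0, with no doublets removed and with no ambient test. Leaving out 1 library gave 0 to 4 genes in neutrophils, 0 to 1 in macrophages, 0 to 2 in mesenchymal cells, 0 to 6 in the other types, 0 to 27 in the subsets and 0 to 2 for the difference between cell types, each highest without WT3. With at most 5% mitochondrial UMIs, Mmp9 in macrophages turned from 0.51 to -0.15 and their MMP to TIMP ratio fell from 1.97 to 1.62. With library totals alone Mmp9 in neutrophils turned to 0.06, with family genes kept in the clustering Mmp3 in tenocytes turned to -0.24, and with no doublets removed the ADAMTS to TIMP ratio of endothelial cells was 0.960. Same-numbered libraries did not all deviate together (correlations of 0.11, -0.51 and 0.12 in neutrophils, -0.22, -0.26 and -0.23 in macrophages and -0.22, -0.68 and -0.18 in mesenchymal cells). In mesenchymal cells, libraries of different number ranged from -0.64 (WT1 with KO3) to 0.7 (WT2 with KO3). Numbers were therefore not taken to pair libraries. The replicate block changed the calls of Timp2 in neutrophils (-0.62, edgeR adjusted p = 0.0692) and Timp1 in Pi16 Dpp4 fibroblasts (edgeR adjusted p = 0.0661). Depth limits genes with few UMIs, such as Adamtsl4 in neutrophils (96) and Mmp12 in C1q Mrc1 macrophages (249).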
